A study of Mus musculus with 8 samples.

Results

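The 9 genes Myc, Mycn, Max, Mxd1, Mxd3, Mxd4, Mxi1, Mnt and Mlx encode transcription factors of the Myc/Max/Mxd network. They were followed here through every probe set of the array that carries only that gene's symbol, 21 of 45101 in all, and they are 9 of 18194 genes named on the array. The arrays measured RNA from CD8+ T cells, the cytotoxic T lymphocytes, purified from mouse spleen. Wild-type mice were C57BL/6 and the other mice carried a homozygous knockout of Elf4 (Elf4-/-), which encodes a transcription factor of the ETS family. The knockout's strain background, which part of Elf4 it removes, and the age of the mice are not given in the sources used here. Cells of each genotype were either left untreated (naive) or cultured for 3.5 days on plates coated with antibody to CD3, with antibody to CD28 and 5% T-stim supplement in the medium (activated). Each of the 4 groups had 2 arrays. The labels do not say whether the 2 came from separate mice or cultures, and both naive wild-type samples cite the same array file although their values differ, so p-values here reflect spread among these samples alone, and that spread may be technical.

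Myc proteins pair with Max through a basic helix-loop-helix leucine zipper and bind the E-box CACGTG, where the pair raises transcription. The Mxd proteins, Mxi1 and Mnt compete for Max and bring Sin3 and histone deacetylase corepressors to the same sites, while Mlx pairs with the glucose-responsive Mondo proteins and with some Mxd proteins. In T cells Myc is induced by antigen receptor signalling and drives growth in size, glycolysis and nucleotide synthesis, and several Mxd genes are known for their expression in resting or differentiated cells.

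The E-box that the network's own proteins bind occurs near the start of some of its genes. RefSeq promoter windows of 300 bases on GRCm38.p6 (250 before the start and 50 after it) were at hand for 8 of the 9 genes, as 10 windows. CACGTG, which reads the same on both strands, was present in 4 of the 10 windows, for 4 of the 8 genes, against 7.15% of all 32851 windows. The 4 stretches below show where it lies, 5′ to 3′ on the gene's strand and with the E-box in capitals. Its first base is 219 bases before the start for Mxd4, 123 for Mnt, 40 for Mlx and 3 for Max.
Mxd4, chr5:34187899-34187954, minus strand: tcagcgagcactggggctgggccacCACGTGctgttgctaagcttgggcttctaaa
Mnt, chr11:74830776-74830831, plus strand: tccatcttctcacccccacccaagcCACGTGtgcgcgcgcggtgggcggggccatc
Mlx, chr11:101087225-101087280, plus strand: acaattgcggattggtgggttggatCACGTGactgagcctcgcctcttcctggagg
Max, chr12:76962221-76962276, minus strand: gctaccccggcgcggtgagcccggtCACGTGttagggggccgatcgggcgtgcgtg
These matches are descriptions of the letters and not measured binding sites. Of the 4 genes, Mxd4 and Mlx fell on activation, while Max and Mnt did not pass the test. Differences between the genes were not tested.

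The ETS family, to which Elf4 belongs, binds a core of GGAA. The longer ETS motif CCGGAAG, searched on both strands, was in 0 of the 10 windows of the network genes and in 8.86% of all windows. The shorter GGAAG, which lies within it, was found in 7 of the 10 windows, for 6 of the 8 genes, and in 71.4% of all windows. Mxd1 is shown because it differed most between the genotypes in naive cells among the 9 genes' brightest probe sets on the log2(intensity + 16) scale. The 250 bases before its start hold GGAAG once on each strand, in capitals, with first bases 136 and 104 bases before the start.
Mxd1, chr6:86669160-86669409, minus strand: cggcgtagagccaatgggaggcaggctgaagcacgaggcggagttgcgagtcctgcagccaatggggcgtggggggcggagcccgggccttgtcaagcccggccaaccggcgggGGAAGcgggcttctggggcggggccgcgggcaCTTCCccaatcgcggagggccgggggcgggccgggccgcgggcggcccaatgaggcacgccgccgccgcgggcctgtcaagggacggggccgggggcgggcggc

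The arrays carried the markers of the labelled cell type and state, while the genotype could not be checked. The 7 measured CD8+ T cell markers, Cd8a and Cd3e among them, summed to 87948 to 114674 on the naive arrays and to 26576 to 35544 on the activated arrays, and Cd4 read between 18.0 and 43.1 throughout. Of 6 activation markers 6 rose on activation in both genotypes, and of 4 measured markers of resting T cells 4 fell. Elf4 itself was dim (1.92 to 199 over its 2 probe sets) and in naive cells its brighter set read 116 and 199 in wild type and 165 and 192 in the knockout. Which part of the gene the knockout removes is not given, so these values do not check the labels. The naive and activated samples also differed in other ways. The 3′ over 5′ signal ratio of Actb can rise as RNA breaks down. It lay between 1.96 and 2.50 in the naive state and between 5.90 and 11.1 after activation. Within the activated state it read 5.98 and 5.90 in wild type and 7.44 and 11.1 in the knockout, so it differed by genotype there too. Signal from the Lys spike-in, a control RNA added to samples, never exceeded 1654 for naive cells and never fell below 62726 for activated cells. Why these measures differed by state was not tested. Xist, from the inactive X chromosome, read 60.3 to 172 and 7703 to 10011 on its brightest probe set, the pattern of male mice in the naive state and of female mice in the activated state. The array files that the labels cite also carry 1 run of names for naive and another for activated samples. Activation therefore cannot be told apart from sex, array file run, RNA integrity or whatever set the spike-in signals apart in any result below. Genotype in activated cells cannot be told apart from the Actb ratio. In bulk RNA, fewer cells of a type and less RNA per cell cannot be told apart either.

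Values are intensities made by MAS5, an Affymetrix summary of the probes of a set, and the SD is over 2 arrays. A probe set was tested if 2 or more of the 8 arrays read it at or above their own median, which held for 18 of the 21, for all 9 genes. The other 3 stayed under the median on all but 1 array between them: 1 of 3 sets of Mxd1 (6.14 to 13.7), 1 of 4 of Mxd4 (11.9 to 109) and 1 of 2 of Mnt (6.88 to 37.6). The test was limma on log2(intensity + 16) over all tested probe sets, with Benjamini-Hochberg adjusted p-values, and a call means an adjusted p under 0.05. A log2 change on this scale understates the change of dim genes.

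**Figure D1:**
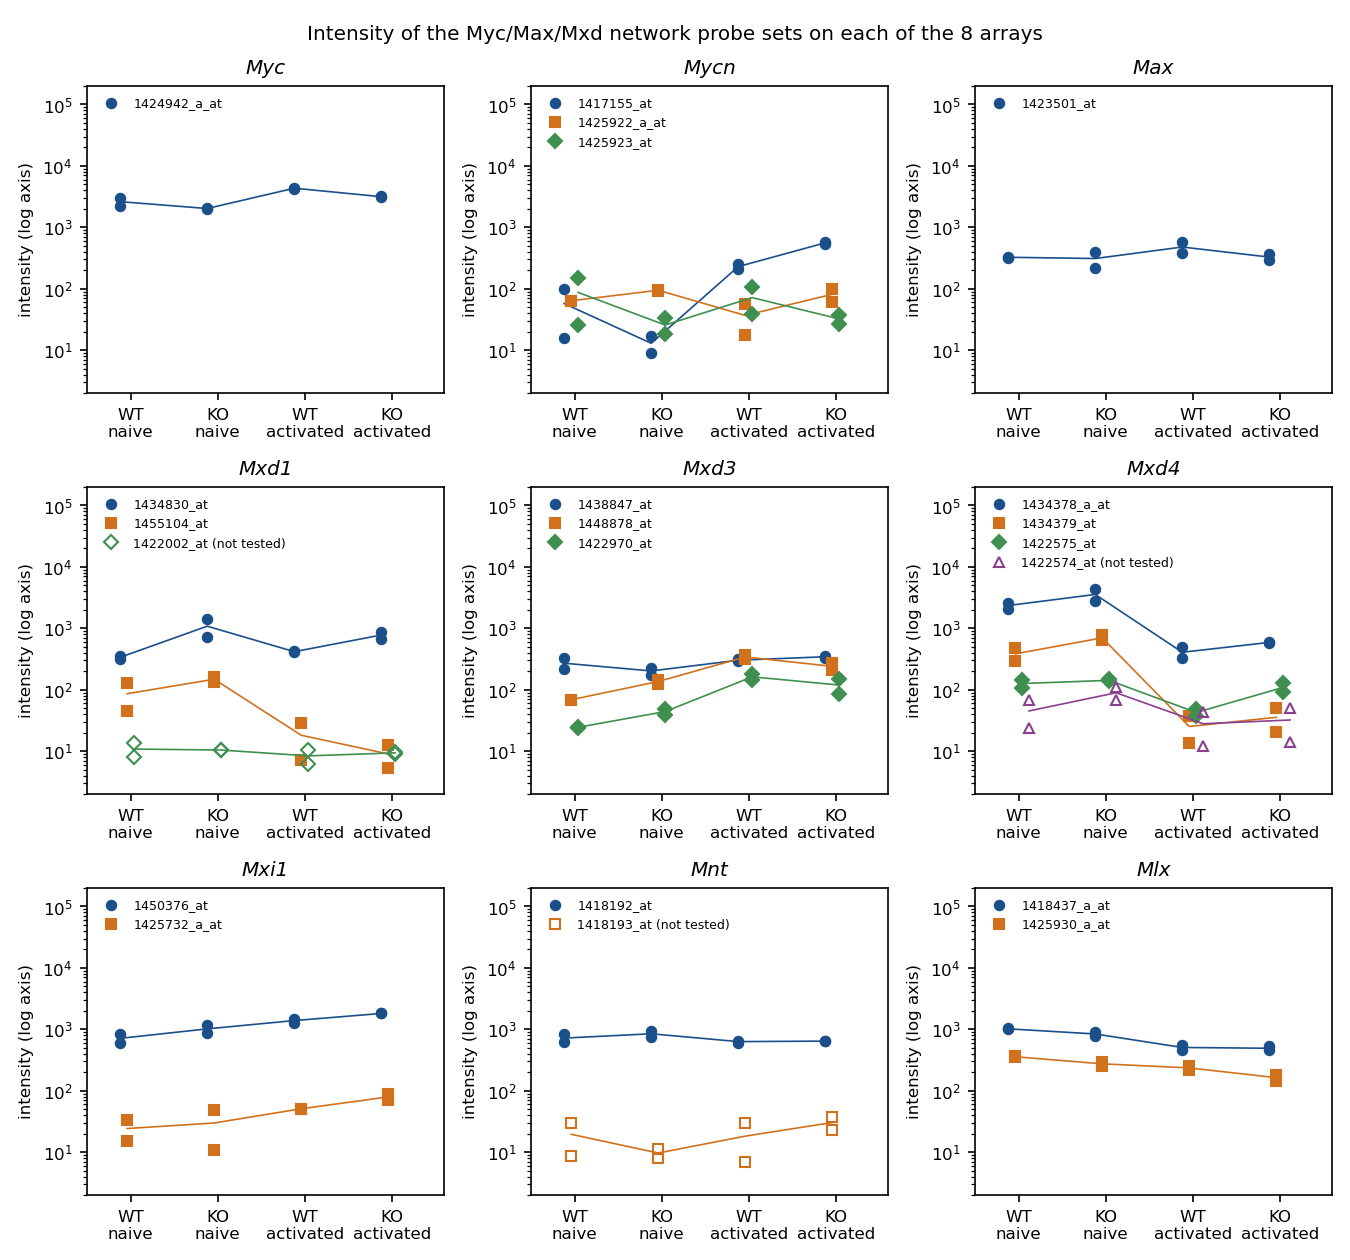
Intensity (log axis) of all 21 probe sets of the 9 genes in the 4 groups, where each point is 1 array, lines join group means and open symbols mark the 3 sets that were not tested. The brightest Mxd4 set drops from 2091 to 4331 in naive to 324 to 595 in activated cells, while Myc rises from 1974 to 2982 to between 3119 and 4445.

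On activation, Myc rose and Mxd4, a repressive partner of Max, fell in both genotypes. Mxi1 rose and Mlx fell as well, while Max and Mnt did not pass. Mycn rose on its brightest set, which was tested only through its activated arrays. In wild-type cells 9 of the 18 tested probe sets were called, 5 higher (17.4% of all probe sets) and 4 lower (21.8% of all), for 6 genes. Of all 27348 probe sets 39.2% were called in that comparison, so this share is near that of the array as a whole. In knockout cells 7 of the 18 were called, 3 higher (18.2% of all) and 4 lower (23.5% of all), also for 6 genes, against 41.7% in either direction. The naive and activated values were fully apart for 15 of 18 in wild type (68.7% of all) and 14 of 18 in the knockout (71.5% of all). Several dim sets (of Mycn, Mxd1, Mxd3, Mxd4 and Mxi1) were tested only because 1 state lifted them to the median, so these counts support nothing beyond the values. The median log2 change of the 18 was 0.07 in wild type and −0.04 in knockout cells, beside −0.15 and −0.16 for all tested probe sets.

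Myc, the growth-driving partner of Max, has 1 probe set and was bright on all 8 arrays. It read 2982 and 2246 (wild type) and 1974 and 2069 (knockout) on naive arrays, then 4445 and 4211 (wild type) and 3119 and 3179 (knockout) on activated arrays. The activated arrays were all above the naive arrays, and within each state both knockout arrays were below both wild-type arrays. The rise was 1.66-fold in wild type (2614 ± 521 to 4328 ± 166, SD, n = 2), which is 0.74 on the log2 scale (SE 0.16, limma adjusted p = 0.00322). In knockout cells it was 1.56-fold (2022 ± 67.6 to 3149 ± 42.8), or 0.64 (SE 0.16, limma adjusted p = 0.00718). The order of the group means was activated wild type, activated knockout, naive wild type, naive knockout, and the neighbours within a state did not pass the limma test (adjusted p = 0.314 in activated and 0.398 in naive cells). Activated knockout against naive wild type was not tested.

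Mycn, the neural paralog of Myc that some lymphoid progenitors also use, was seen to change by 1 of its 3 probe sets. Its brightest set read 15.9 and 98.7 (wild type) and 17.0 and 8.89 (knockout) on naive arrays, then 210 and 248 (wild type) and 532 and 586 (knockout) on activated arrays. Activated values were above naive values on every array, and naive values lay below the array median except on wild-type naive replicate 2. The log2 change was 2.01 in wild type (SE 0.54, limma adjusted p = 0.0125) and 4.33 in the knockout (SE 0.54, limma adjusted p = 8.43e-05). The other 2 sets did not follow: they stayed between 17.7 and 148 and gave −0.70 and −0.03 in wild type and −0.21 and 0.23 in the knockout, none past the threshold. The direction for Mycn therefore rests on a single probe set, which was tested only through its activated arrays.

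Max, the partner that Myc, Mxd and Mnt proteins share, did not pass in either genotype. It read 330 and 320 (wild type) and 219 and 400 (knockout) on naive arrays, then 569 and 384 (wild type) and 361 and 293 (knockout) on activated arrays. The naive and activated values did not overlap in wild type but did in the knockout. The log2 changes were 0.51 (SE 0.31, limma adjusted p = 0.235) and 0.13 (SE 0.31, limma adjusted p = 0.781).

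Mxd4, whose protein represses E-box genes, fell more than any other network gene among the brightest probe sets. Its brightest set read 2091 and 2604 (wild type) and 4331 and 2782 (knockout) on naive arrays, then 490 and 324 (wild type) and 595 and 583 (knockout) on activated arrays. The naive arrays were all above 2000 and the activated arrays all below 600. The fall was 5.77-fold in wild type (2348 ± 363 to 407 ± 117; log2 −2.50, SE 0.25, limma adjusted p = 1.88e-05). In the knockout it was 6.04-fold (3557 ± 1095 to 589 ± 8.17; log2 −2.53, SE 0.25, limma adjusted p = 1.55e-05). A second set gave −3.30 and −3.86 (limma adjusted p = 0.000153 and 4.44e-05), going from 290 to 765 on naive arrays to 13.4 to 50.6 on activated arrays. The remaining tested set, which is dim, gave −1.27 in wild type (limma adjusted p = 0.0252) and −0.36 in the knockout (0.507), so the fall in both genotypes rests on the brightest set, since the second was tested only through its naive arrays.

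Mxi1, also called Mxd2, moved opposite to Mxd4. It read 601 and 824 (wild type) and 1153 and 879 (knockout) on naive arrays, then 1289 and 1485 (wild type) and 1808 and 1814 (knockout) on activated arrays. Every activated array was above every naive array. The rise was 1.95-fold in wild type (log2 0.96, SE 0.21, limma adjusted p = 0.00349) and 1.78-fold in the knockout (log2 0.84, SE 0.21, limma adjusted p = 0.00721). The dimmer set, at 10.8 to 88.9, gave 0.77 and 1.18 and did not pass (limma adjusted p = 0.374 and 0.162).

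Mxd3, the family member known to be expressed in S phase of cycling cells, gave 3 probe sets that disagreed. The second brightest read 68.4 and 68.7 (wild type) and 126 and 146 (knockout) on naive arrays, then 320 and 362 (wild type) and 206 and 275 (knockout) on activated arrays. Activated values were above naive values in both genotypes, and the wild type spanned the wider range. Naive wild-type values lay below the array medians, so no fold is given. The log2 change in wild type was 2.07 (SE 0.31, limma adjusted p = 0.000306), and the knockout value was 0.75 (SE 0.31, limma adjusted p = 0.0745). The dimmest set gave 2.13 (limma adjusted p = 0.00369) and 1.13 (0.0724). The brightest set, at 176 to 360, gave 0.18 (limma adjusted p = 0.654) and 0.73 (0.0575). The dimmest set reached the median only on activated arrays, so the wild-type call rests on the second brightest set. The difference between the genotypes did not pass for any of the 3 (limma adjusted p = 0.334, 0.676 and 0.712).

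Mxd1, a repressor known for its induction during differentiation of blood cells, did not pass on activation on its brighter set. That set read 352 and 322 (wild type) and 1439 and 725 (knockout) on naive arrays, then 409 and 422 (wild type) and 879 and 675 (knockout) on activated arrays. The activation changes were 0.29 in wild type (SE 0.30, limma adjusted p = 0.479) and −0.40 in the knockout (SE 0.30, limma adjusted p = 0.309). Its other tested set was dim and fell in the knockout, from 163 and 133 to 5.29 and 12.7 (log2 −2.72, SE 0.64, limma adjusted p = 0.00566). In wild type that set went from 127 and 45.0 to 7.15 and 29.1 (log2 −1.53, limma adjusted p = 0.0833). The dimmer set was tested only through its naive arrays, so its fall gives no direction for Mxd1 on activation.

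Mnt, the broadly expressed Max partner that opposes Myc, read 828 and 611 in naive wild-type and 741 and 950 in naive knockout cells. After activation wild-type arrays read 609 and 650 and knockout arrays 638 and 645, so the groups overlapped in wild type. The changes were −0.17 (SE 0.22, limma adjusted p = 0.57) and −0.38 (SE 0.22, limma adjusted p = 0.189).

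Mlx, the Max-like partner of the Mondo proteins, read 993 and 1044 in naive wild-type and 907 and 771 in naive knockout cells. After activation wild-type arrays read 461 and 551 and knockout arrays 525 and 457, all below the naive arrays. The fall was 2.01-fold in wild type (log2 −0.99, SE 0.20, limma adjusted p = 0.00233) and 1.71-fold in the knockout (log2 −0.75, SE 0.20, limma adjusted p = 0.0107). A second set gave −0.58 and −0.70 and missed the threshold (limma adjusted p = 0.114 and 0.0571).

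**Figure D2:**
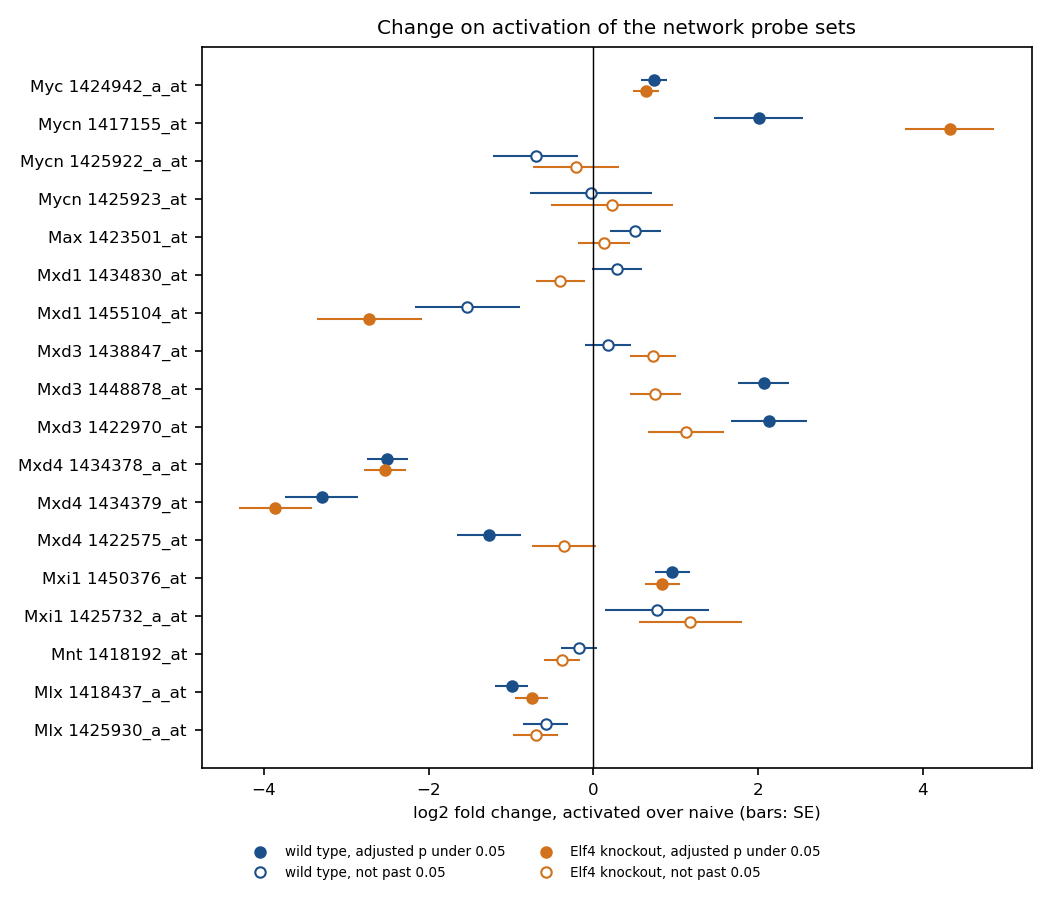
Log2 fold change of activated over naive cells (x axis; bars are the SE) for the 18 tested probe sets, in wild type (blue) and Elf4 knockout (orange), filled where the adjusted p was under 0.05. Mxd4 lies at −2.50 and −2.53 on its brightest set, Myc at 0.74 and 0.64, and the brightest Mycn set at 2.01 and 4.33.

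Once the Actb ratio was added as a covariate, which nearly follows the state, none of these 18 probe sets was called in either genotype. Over all 27348 probe sets that fit called 484 in wild type and 0 in the knockout, against 10714 and 11395 without the covariate. The activation changes then were −2.79 and −2.98 for the brightest Mxd4 set (limma adjusted p = 0.16 and 0.53) and 1.01 and 1.08 for Myc (0.406 and 0.729). Other changes shrank: the brightest Mycn set gave 0.22 in wild type and 1.43 in the knockout (limma adjusted p = 0.971 and 0.908), Mxi1 0.57 and 0.21 (0.75 and 0.972) and Mlx −0.65 and −0.21 (0.704 and 0.972), each on its brightest set. These 5 genes kept their directions, and the part of RNA integrity in the calls was not tested beyond this.

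Between the genotypes no network probe set passed within a state, and Mxd1 came nearest. In naive cells 0 of 18 were called with limma, against 0.563% of all probe sets, with 5 at an unadjusted p under 0.05. In activated cells 0 of 18 were called with limma, against 0.216% of all, with 4 at an unadjusted p under 0.05. The array values of the genotypes were fully apart for 11 of 18 in naive cells (38.2% of all probe sets) and for 13 of 18 in activated cells (47% of all).

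Mxd1 was 3.21-fold higher in naive knockout than in naive wild-type cells on its brighter set (1082 ± 505 against 337 ± 21.2, SD, n = 2). The log2 difference was 1.56 (SE 0.30, limma adjusted p = 0.0508), which just misses the threshold and ran from 0.0293 to 0.419 over the alternatives. In activated cells it was 1.87-fold higher (777 ± 145 against 416 ± 9.58; log2 0.87, SE 0.30, limma adjusted p = 0.311). All 4 knockout arrays, from 675 to 1439, lay above all 4 wild-type arrays, from 322 to 422. The mean of the differences in both states, a comparison added after these values were seen, was 1.21 (SE 0.21, limma adjusted p = 0.034). It was the only network set called of 18, against 0.552% of all probe sets, and its call was lost without any single activated array (adjusted p = 0.126 to 0.208), without wild-type naive replicate 2 (0.0513), with quantile normalization (0.0542) and without a trend in the prior variance (0.219). The naive difference alone was called without knockout naive replicate 2 (log2 2.04, adjusted p = 0.0293) and was 1.07 without knockout naive replicate 1 (adjusted p = 0.0973). The dimmer set gave 0.81 in naive and −0.39 in activated cells (adjusted p = 0.689 and 0.895). For the brighter set the call for the mean of both states was also lost with the Actb ratio as a covariate.

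Markers of some other blood cells were also higher on both naive knockout arrays, and Mxd1 is known to be expressed in granulocytes. Not all were: in naive cells erythroid markers summed to 421 and 375 in wild type against 176 and 137 in the knockout. CD4 T cell markers summed to 325 and 363 against 205 and 260, and the B cell and platelet sums overlapped. The 8 measured granulocyte markers summed to 405 and 688 in naive wild-type and to 4647 and 19478 in naive knockout arrays, with 4 of 8 called higher. The array with the larger sum, knockout naive replicate 2, had the lower Mxd1 value (725) and knockout naive replicate 1 the higher (1439). In activated cells the granulocyte sums were 257 and 385 for wild-type arrays against 192 and 224 for knockout arrays, where Mxd1 was also higher. The 7 B cell markers summed to 5651 and 4307 against 4873 and 13580 in naive cells, and the 9 macrophage markers to 2257 and 2635 against 3843 and 6356, with 0 of 7 and 0 of 6 tested markers called by limma. The 4 measured markers of natural killer cells summed higher in the knockout in both states. The sums were 403 and 489 against 1012 and 1184 in naive cells, with 1 of 3 tested markers called. In activated cells they were 187 and 221 against 441 and 286, with 0 called. The single markers differed. Klra8 read 62.1 and 126 against 664 and 588 in naive cells, but 17.8 and 28.6 against 1.44 and 7.37 in activated cells. Klra7 read 186 and 141 against 179 and 248, and Fcer1g 129 and 214 against 161 and 303, in naive cells. Both overlapped there and were higher in activated knockout cells, while Ncr1 overlapped in both states. The part of these cells in the Mxd1 differences was not tested.

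**Figure D3:**
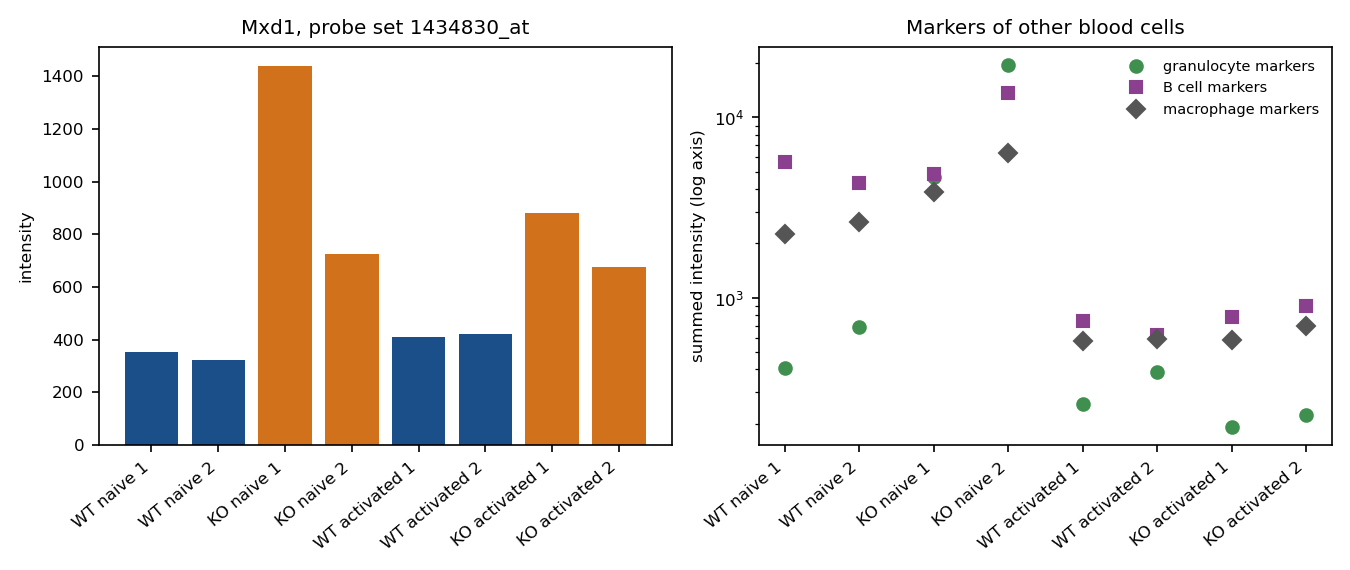
Left, intensity of the brighter Mxd1 probe set on each array (bars from 0, wild type blue, knockout orange); right, summed intensity (log axis) of the 8 granulocyte, 7 B cell and 9 macrophage markers on the same arrays. Mxd1 is at or above 675 on all 4 knockout arrays, while the granulocyte sum is highest at 19478 on knockout naive replicate 2 and at most 224 on the activated knockout arrays.

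Myc was lower in the knockout by 0.35 in naive (SE 0.16, limma adjusted p = 0.398) and by 0.46 in activated cells (SE 0.16, limma adjusted p = 0.314) on the log2 scale, and by 0.41 as the mean of both states (SE 0.11, limma adjusted p = 0.15). The array values did not overlap in either state, at folds of 1.29 and 1.37 in favour of the wild type. Fitted on the 4 activated arrays alone, Myc, the brighter Mxd1 set and the brightest Mycn set passed in activated cells (limma adjusted p = 0.0413, 0.039 and 0.0168), while that fit raised the calls over all probe sets from 59 to 734.

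Mxd4 and Mxi1 read higher in the knockout on their brightest sets without passing. Mxd4 gave 0.57 in naive and 0.54 in activated cells (SE 0.25 each, limma adjusted p = 0.397 and 0.483). Mxi1 gave 0.51 and 0.38 (SE 0.21 each, limma adjusted p = 0.352 and 0.563). In both states and for both genes the knockout arrays lay above the wild-type arrays. Mycn turned sign between the states on its brightest set, at −1.08 in naive and 1.23 in activated cells (SE 0.54 each, limma adjusted p = 0.474 and 0.459). Its other sets did not, at 0.47 and 0.95 and at −1.02 and −0.76, none past the threshold. The second Mxd3 set turned sign the other way, at 0.84 and −0.49 (SE 0.31 each, limma adjusted p = 0.307 and 0.636). The dimmest Mxd3 set gave 0.57 and −0.43, but the brightest gave −0.38 and 0.18, none past the threshold. A dim Mxd4 set gave 0.17 and 1.08 (SE 0.39 each, limma adjusted p = 0.919 and 0.356). For Mnt the differences were 0.23 and 0.03, for Max −0.12 and −0.50, and for the brightest Mlx set −0.28 and −0.04, none past the threshold (limma adjusted p = 0.632 to 0.984).

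**Figure D4:**
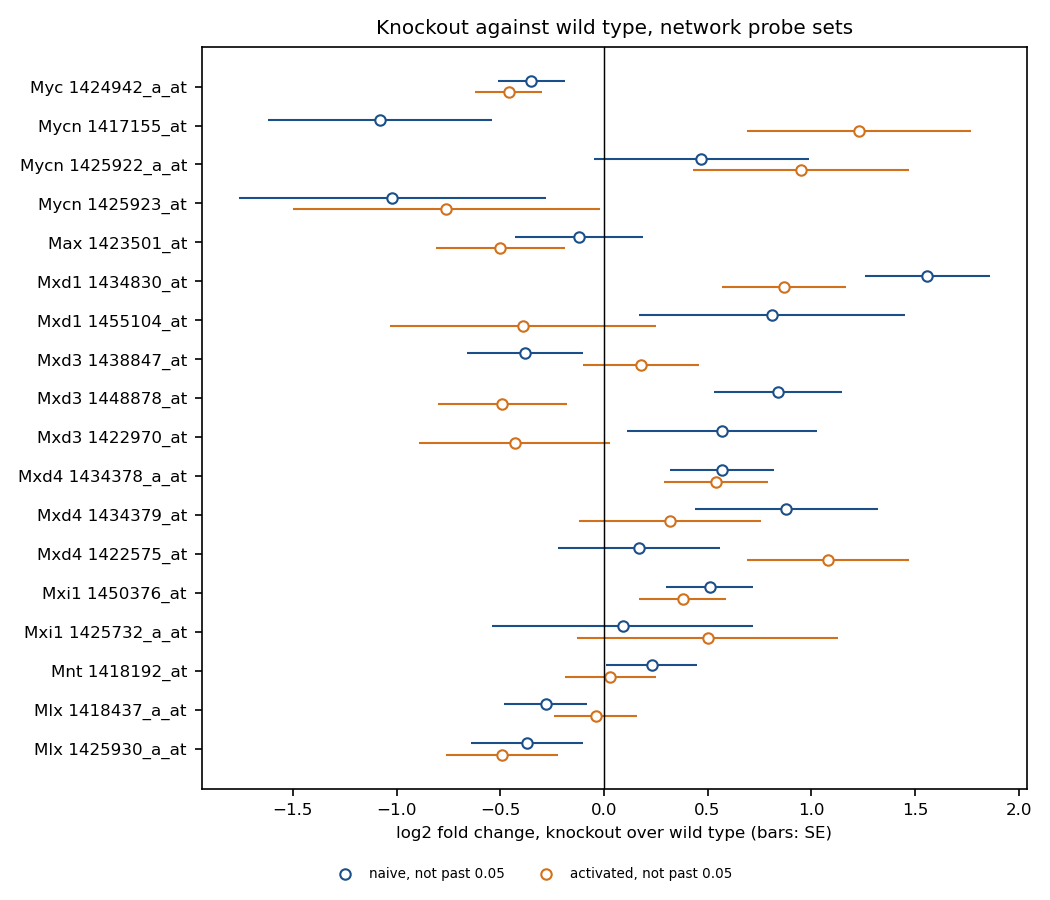
Log2 fold change of knockout over wild type (x axis; bars are the SE) for the 18 tested probe sets in naive (blue) and activated (orange) cells; open symbols show that no set passed an adjusted p of 0.05. The brighter Mxd1 set lies at 1.56 and 0.87 and Myc at −0.35 and −0.46.

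No network probe set passed the test for a different activation response between the genotypes. With limma 0 of 18 were called for that difference, against 0.0585% of all, and 2 had an unadjusted p under 0.05. Those were the brightest Mycn set, with a response larger by 2.31 in the knockout (SE 0.77, limma adjusted p = 0.342), and the second Mxd3 set, with a response of −1.33 against wild type (SE 0.43, limma adjusted p = 0.334). On that Mxd3 set both knockout arrays were above the wild-type arrays in naive cells and below them in activated cells. The brightest Mxd3 set gave 0.55 and the dimmest −1 (limma adjusted p = 0.712 and 0.676). The response of Myc differed by −0.10 (SE 0.22) and that of the brightest Mxd4 set by −0.03 (SE 0.35).

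Among genes outside the network, those whose pattern over the 8 arrays was most like Myc were sought by the root mean square difference of log2 values centred on each gene's own mean. Of 12774 genes compared by their brightest probe set, the nearest were Bpnt1 (0.082), Prrc2a (0.097), Hnrnpd (0.111), Pisd (0.116) and Pacrgl (0.125). Bpnt1, a phosphatase of sulfur metabolism, read 551 and 399 (wild type) and 380 and 381 (knockout) on naive arrays, then 848 and 684 (wild type) and 612 and 606 (knockout) on activated arrays. The nearest to the brightest Mxd4 set were Mtfr1l (0.225), Zfp354c (0.236), Cyp4v3 (0.248), Dvl1 (0.265) and Slfn2 (0.268). Slfn2, a Schlafen gene of T cell quiescence, lay between 13050 and 14590 in the naive state and between 1584 and 2991 after activation.

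Genes that Myc is known to raise went up with activation in both genotypes. Of 45 such genes 40 were tested, each by its brightest probe set, and 32 rose and 1 fell in wild type, with a median log2 change of 1.03. In the knockout 33 rose and 1 fell, with a median of 1.16. Of all tested probe sets 17.4% rose in wild type and 18.2% in the knockout, with medians of −0.15 and −0.16. Hk2, the hexokinase of growing cells, went from 344 and 327 to 7611 and 7902 in wild type and from 208 and 222 to 8853 and 9247 in the knockout (log2 4.47 and 5.29, limma adjusted p = 2.52e-08 and 7.88e-09). Tfrc, the transferrin receptor, rose by 3.66 and 4.30 (limma adjusted p = 6.14e-08 and 2.52e-08). The gene that fell was Fbl, the nucleolar methyltransferase fibrillarin, from 9413 and 10755 to 6075 and 5867 in wild type (log2 −0.75, limma adjusted p = 0.000507) and by 0.99 in the knockout (limma adjusted p = 6.37e-05). None of the 40 was called between the genotypes by limma in naive or activated cells. Their medians there were −0.13 and −0.03, beside 0.00 and −0.02 for all probe sets.

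Genes that Myc is known to lower did not go 1 way. Of 9 such genes 8 were tested, and 3 rose and 2 fell in each genotype. Over all probe sets 17.4% rose and 21.8% fell in wild type, and 18.2% rose and 23.5% fell in the knockout. Cdkn1a, the CDK inhibitor p21, rose most, from 34.0 and 61.4 to 10274 and 9635 in wild type and from 9.35 and 24.7 to 13553 and 14007 in the knockout (log2 7.32 and 8.75, limma adjusted p = 3.06e-08 and 9.37e-09). Ndrg1, a stress and differentiation gene, rose by 2.65 and 2.23 (limma adjusted p = 2.75e-06 and 8.29e-06). Gadd45a, a growth arrest gene, fell by 3.21 and 2.34 (limma adjusted p = 0.000497 and 0.00358), and Cdkn1b, the CDK inhibitor p27, fell by 1.74 in wild type and by 1 in the knockout (limma adjusted p = 0.000873 and 0.0202).

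Ndrg1 was the only gene of these 2 target lists called between the genotypes. It read 705 and 552 in naive wild-type and 1698 and 1167 in naive knockout cells, 2.28-fold higher (log2 1.15, SE 0.20, limma adjusted p = 0.0372). The knockout was also higher in activated cells, at 6908 and 6441 against 3622 and 4404, without passing (log2 0.74, limma adjusted p = 0.203). The naive call was made by 1 of its 5 tested probe sets, a set marked _x_at that can bind related transcripts, and the differences of the 5 ran from −0.50 to 2.24.

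On the Mondo side of the network, Mlxip and the 2 target genes tested fell on activation beside Mlx. The related gene Mlxipl was too dim to be tested (2.87 to 37.8). Txnip, a glucose-responsive target of Mlx with Mondo proteins that limits glucose uptake, went from 23846 and 21663 to 1673 and 1714 in wild type and from 19221 and 17775 to 1218 and 1217 in the knockout. These changes were −3.73 and −3.91 (limma adjusted p = 2.3e-08 and 9.37e-09). Arrdc4, a related arrestin gene with the same regulation, fell by 1.33 and 2.13 (limma adjusted p = 0.0136 and 0.000727). Mlxip, which encodes MondoA, fell by 1.14 and 1.21 (limma adjusted p = 0.00249 and 0.00156). Of 6 tested other genes of this protein family 4 fell in each genotype (21.8% and 23.5% of all probe sets), with Bmyc, a truncated Myc relative, at −2.22 and −2.06 (limma adjusted p = 0.00121 and 0.0018). Mga, a large Max partner, rose in wild type by 0.64 (limma adjusted p = 0.0297) on 1 of 3 sets.

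Cofactors and regulators of the network moved in both directions. Of 16 tested Myc cofactors 6 rose and 5 fell in wild type and 3 rose and 7 fell in the knockout. Over all probe sets 17.4% rose and 21.8% fell in wild type and 18.2% rose and 23.5% fell in the knockout, which is the background for each of these lists. Ccnt1, a subunit of the elongation kinase, rose by 0.96 in wild type (limma adjusted p = 0.00239) and Ruvbl1, a chromatin remodelling ATPase, by 0.95 (0.000248). The acetyltransferase gene Crebbp fell by 1.55 (limma adjusted p = 2.49e-05) and the remodeller gene Ep400 by 0.97 (0.000383). Other probe sets of Ep400 disagreed, since 2 of 6 were called and the changes ran from −1.88 to 0.96. Of 13 Sin3 and histone deacetylase genes, the corepressors of Mxd proteins, 4 rose and 3 fell in wild type and 5 rose and 2 fell in the knockout, which is 7 of 13 in each beside 39.2% and 41.7% of all probe sets. Sap30 rose by 1.88 and Rbbp7 by 0.93 in wild type (limma adjusted p = 3.56e-05 and 6.06e-05), while the scaffold gene Sin3a fell by 0.94 and Suds3 by 0.72 (0.000943 and 0.00508). Only 1 of 3 Sin3a sets and 1 of 2 Suds3 sets were called, and the others reached −0.27 and 0.11.

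Of 20 tested genes that control Myc protein turnover, 10 rose and 5 fell in wild type and 8 rose and 5 fell in the knockout, beside 39.2% and 41.7% of all probe sets called in either direction. Cip2a, which shields Myc from a phosphatase, went from 115 and 9.62 to 2747 and 2967 in wild type and from 115 and 67.8 to 2702 and 2633 in the knockout (log2 5.63 and 4.68, limma adjusted p = 1.98e-05 and 6.74e-05). Plk1, a mitotic kinase, rose by 3.82 and 2.97 (limma adjusted p = 5.43e-07 and 2.82e-06). Usp28, a deubiquitinase that stabilises Myc, fell by 2.19 and 2.73 (limma adjusted p = 1.72e-05 and 3.11e-06), and Axin1, a scaffold for Myc degradation, by 1.91 and 1.85 (6.37e-05 and 7e-05). None of these cofactor, corepressor, turnover and related family genes was called between the genotypes by limma in naive or activated cells.

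**Figure D5:**
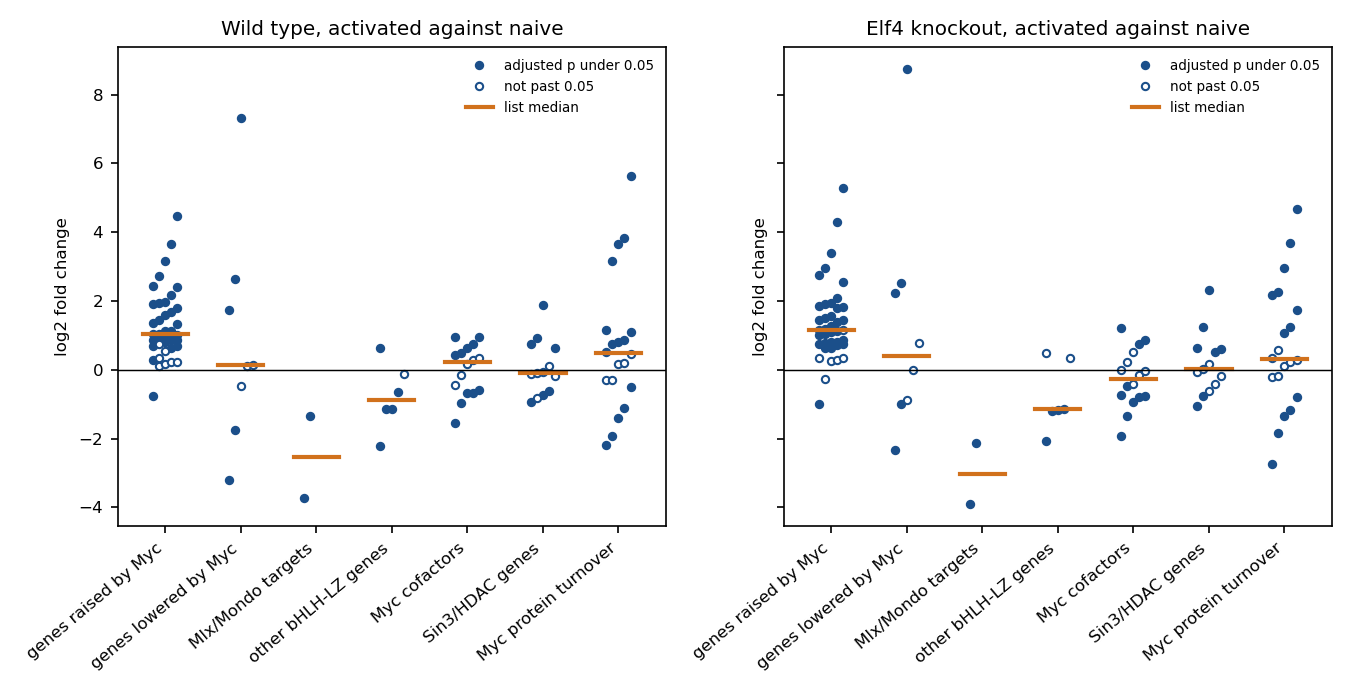
Log2 fold change of activated over naive cells (y axis) for the tested genes of 7 lists in wild type (left) and Elf4 knockout (right); each point is 1 gene by its brightest probe set, filled where the adjusted p was under 0.05, and orange lines are list medians. The genes raised by Myc have medians of 1.03 and 1.16, and the highest point, at 7.32 and 8.75, is Cdkn1a.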

How the data were processed

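The deposited values are linear intensities of probe sets, which the authors made with MAS5 per the submitters' processing notes (no version stated there). Each array had a 2% trimmed mean of 500, so the arrays had already been scaled. With 2 arrays in a group, precision is limited by their number. Symbols came from the platform annotation, 34945 probe sets with 1, 932 with several and 9160 with none besides 64 controls, updated by Entrez identifier to GRCm38.p6 (34754 matched).

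Analysis used R 4.3.3 and limma 3.58.1. A model with 4 group means was fitted to log2(intensity + 16) of 27348 probe sets on 8 arrays (lmFit, eBayes with trend; 4 residual and 6.7 prior degrees of freedom), with 5 two-sided contrasts. The fit was tested on simulated data. All probe sets of the 9 genes are named, the brightest first. Other genes were named by list: the 2 largest rises and falls past the threshold on wild-type activation, and those called by genotype. The members, lists and rules were chosen with earlier results of these data known. The mean of both states was added after the values were seen. Alternatives varied the offset, normalization, filter, prior, arrays, weights, replicate block and Actb covariate.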

Additional observations from a re-analysis of the deposited data

How the results depend on the processing

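Of the 5 planned counts, the difference of the activation effect stayed at 0 under every alternative run. On activation, 9 network probe sets in wild type and 7 in the knockout became 0 and 0 once the Actb ratio was a covariate. Calls over all probe sets then became 484 and 0. The knockout count of network sets was 4 with a log2 change of at least 1 as well. In naive cells the count of 0 between genotypes became 1, the brighter Mxd1 set, with an offset of 64, a robust prior, the replicate block, and without _x_at and _s_at probe sets. In activated cells it became 3 with only the arrays compared. For the mean of both states the count of 1 became 0 with quantile normalization, without a trend and with the Actb ratio. Leaving out each array gave 7 to 9 on activation in wild type, 6 to 8 in the knockout, 0 to 1 between genotypes in naive cells (1 without knockout naive replicate 2) and 0 in activated cells, and 0 to 1 for the mean of both states (0 without any activated array). The cause of these changes was not tested. The replicate numbers showed no strong common shift: the correlation of replicate 1 minus 2 between groups ran from −0.167 to 0.069. Such values cannot show whether arrays of the same number were paired, since a shared effect may be small beside the noise. With the replicate block the counts were 9 and 7 on activation, 1 in naive cells (Mxd1, adjusted p = 0.049), 0 in activated cells, 0 for the difference of the activation effect and 1 for the mean of both states. Swapping the numbers of the naive knockout arrays, added after seeing the data, gave 9, 8, 0, 0, 0 and 1. Over all probe sets the calls in naive cells ran from 3 to 235 (154 as reported), in activated cells from 6 to 734 (59), for the mean of both states from 3 to 319 (151), for the difference of the activation effect from 0 to 84 (16), and on activation from 484 to 11049 in wild type (10714) and 0 to 12184 in the knockout (11395).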
